A study of Mus musculus with 2 samples.

Results

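The 10 genes described here encode transcription factors of the trophectoderm, the outer epithelium of the blastocyst that gives rise to the placenta. They were chosen by name: *Tead4*, *Cdx2*, *Gata3*, *Gata2*, *Tfap2c*, *Tfap2a*, *Eomes*, *Elf5*, *Hand1* and *Arid3a*, 10 of the 37018 features with a name or accession of their own on the array. The array carried 13 probes for them, each in 1 spot, with 2 probes for *Eomes*, *Tfap2a* and *Arid3a* and 1 for each of the other genes. RNA came from AIMP3f/f;cre-ERT2 mESCs, mouse embryonic stem cells from clones derived from blastocysts, in which tamoxifen activates a Cre recombinase that removes loxP-flanked *AIMP3*. The AIMP3-depleted cells had 2 μM tamoxifen for 4 days in medium with LIF, the cytokine that sustains mESCs, in 2 replicates, and each was labelled with Cy5 and hybridized to 1 array. Control cells of the same genotype received ethanol over the same time, and RNA of 2 control replicates was combined in 1 pool that went onto both arrays in Cy3. All cells thus carried the floxed allele and the Cre, and no control had tamoxifen without the floxed allele, so AIMP3 loss, Cre activity and tamoxifen cannot be told apart. The labels place the cells on feeder layers of mouse embryonic fibroblasts in general culture, and the study's methods name fibroblast-conditioned medium for drug treatment.

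Trophectoderm and inner cell mass are the earliest lineages to separate in the mouse embryo. In outer cells, low Hippo kinase activity lets YAP enter the nucleus and join TEAD4, which together with Notch signalling switches on *Cdx2*, while GATA3 acts in parallel. CDX2, EOMES, ELF5 and TFAP2C then sustain trophoblast stem cells, and HAND1 and GATA factors act in their differentiated descendants. In embryonic stem cells OCT4 represses *Cdx2*, and *Elf5* is held by DNA methylation.

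The arrays shared 1 slide and the dyes were never swapped, so a dye preference of single genes and the effect of depletion cannot be told apart. Because the control pool is 1 sample, a ratio tested against 0 takes no account of how control cultures vary. Nothing in the labels says whether the replicates were separate cultures, so p-values measure the spread between these 2 samples, which may be technical. Between 59.3% and 60.6% of spots in a channel were well above background, the median signal was between 2.68 and 3.31 times the local background, and 0 spots were saturated. *Eef1e1*, the gene that encodes AIMP3, had a log2 ratio of AIMP3-depleted over control of -0.90 on each array (mean -0.90 ± 0.0067, SD, n = 2, adjusted p = 5.11e-05, limma with Benjamini-Hochberg adjustment). The mESC markers *Pou5f1* (OCT4), *Nanog*, *Sox2* and *Zfp42* were each detected above background in all 4 readings. So were the fibroblast genes *Vim* and *Col1a1*, so detection cannot tell mESCs from a mixture with feeder cells.

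The log2 ratio of a gene is positive where the AIMP3-depleted channel was brighter, and each ratio follows background correction and normalization within its array. A gene was called changed at over 1.5-fold (0.58 on the log2 scale) with an unadjusted p under 0.05 in limma. By this rule 5 of the 9 factors tested rose, 0 fell and 4 were not past the threshold. Over all 24020 genes tested, 6.32% were called, 5.52% higher and 0.791% lower in AIMP3-depleted cells. The factors that rose were *Hand1*, *Gata3*, *Gata2*, *Cdx2* and *Tead4*, all under 2-fold. The median log2 ratio of the 9 tested factors was 0.64 (0.56 for replicate 1 and 0.60 for replicate 2) against 0.015 for all tested genes. All 9 had an adjusted p under 0.05, as did 54.2% of all genes tested. *Elf5* could not be tested because its probe was not well above background. The 9 tested genes passed the background filter in all 4 readings, so none entered through its brighter channel alone. In a population of cells, more cells with a transcript and more transcript per cell cannot be told apart.

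**Figure D1:**
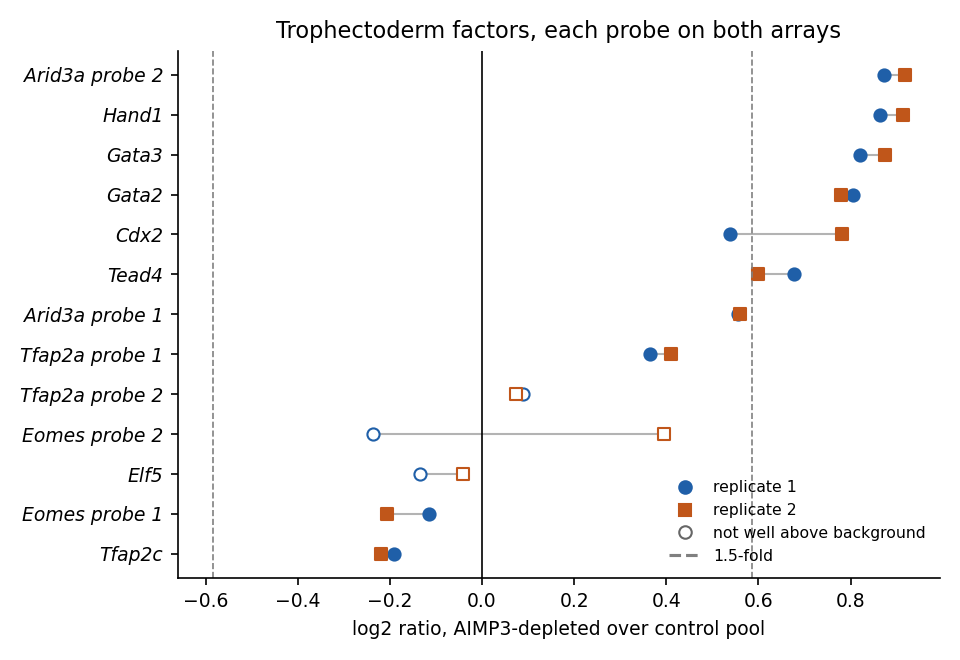
Log2 ratio of AIMP3-depleted over control pool for each of the 13 probes, with a circle for replicate 1, a square for replicate 2, open symbols for probes not well above background, and dashed lines at 1.5-fold. *Hand1*, *Gata3*, *Gata2*, *Tead4* and the second *Arid3a* probe lie beyond 1.5-fold on both arrays, *Cdx2* on that of replicate 2 alone, and *Tfap2c*, the first *Eomes* probe and the dim *Elf5* probe lie below 0 on both.

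The windows before the start sites of 6 factors were held in the RefSeq promoter table (build GRCm38.p6), 9 windows in all, of which 6 are printed, all those of *Cdx2*, *Gata3* and *Gata2*, which rose, and of *Elf5*, which could not be measured. Each is the 250 bases before the start, 5′ to 3′ on the gene's strand, with CpG dinucleotides, the target of DNA methylation, in capitals.
Cdx2, chr5:147307250-147307499, minus strand: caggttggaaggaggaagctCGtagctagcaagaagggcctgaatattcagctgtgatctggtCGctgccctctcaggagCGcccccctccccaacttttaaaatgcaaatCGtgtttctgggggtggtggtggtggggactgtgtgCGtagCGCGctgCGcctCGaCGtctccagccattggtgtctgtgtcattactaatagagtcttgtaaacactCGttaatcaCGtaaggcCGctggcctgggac
Gata3, chr2:9878601-9878850, minus strand: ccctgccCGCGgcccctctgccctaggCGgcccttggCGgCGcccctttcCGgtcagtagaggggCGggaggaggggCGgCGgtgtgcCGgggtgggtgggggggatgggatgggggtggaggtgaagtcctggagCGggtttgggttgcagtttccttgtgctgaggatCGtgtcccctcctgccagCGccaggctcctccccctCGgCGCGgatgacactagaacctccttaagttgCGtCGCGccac
Gata2, upstream, chr6:88193641-88193890, plus strand: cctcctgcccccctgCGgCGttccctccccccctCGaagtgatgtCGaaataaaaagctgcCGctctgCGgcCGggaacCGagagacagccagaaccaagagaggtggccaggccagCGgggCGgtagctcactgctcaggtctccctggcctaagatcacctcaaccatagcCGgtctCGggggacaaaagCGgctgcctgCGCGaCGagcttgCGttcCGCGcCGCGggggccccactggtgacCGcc
Gata2, downstream, chr6:88198414-88198663, plus strand: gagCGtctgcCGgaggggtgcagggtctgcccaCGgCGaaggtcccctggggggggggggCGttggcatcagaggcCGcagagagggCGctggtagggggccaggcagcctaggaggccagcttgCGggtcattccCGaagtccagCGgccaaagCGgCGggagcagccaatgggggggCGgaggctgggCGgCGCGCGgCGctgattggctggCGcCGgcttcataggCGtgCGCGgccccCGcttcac
Elf5, upstream, chr2:103411848-103412097, plus strand: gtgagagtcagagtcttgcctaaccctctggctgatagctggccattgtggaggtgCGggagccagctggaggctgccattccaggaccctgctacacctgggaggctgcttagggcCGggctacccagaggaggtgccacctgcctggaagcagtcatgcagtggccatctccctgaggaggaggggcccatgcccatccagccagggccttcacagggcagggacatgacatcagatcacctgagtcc
Elf5, downstream, chr2:103423818-103424067, plus strand: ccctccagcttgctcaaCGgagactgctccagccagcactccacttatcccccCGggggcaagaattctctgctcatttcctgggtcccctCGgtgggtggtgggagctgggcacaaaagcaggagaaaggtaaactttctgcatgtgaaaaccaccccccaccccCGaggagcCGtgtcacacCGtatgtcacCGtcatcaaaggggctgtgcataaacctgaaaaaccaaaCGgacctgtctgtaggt
Over all 32851 windows of this length the median number of CpG was 6, with quartiles of 2 and 16. The *Cdx2* window held 13 CpG, the *Gata3* window 19, the upstream *Gata2* window 22 and the downstream one 24. The upstream *Elf5* window held 2 CpG and the downstream one 8. Methylation was not measured here. The windows of *Eomes* and *Tfap2a* held 8, 10 and 10 CpG. No window was available here for *Tfap2c*, *Tead4*, *Hand1* or *Arid3a*, so *Tead4* and *Hand1*, which rose, are missing from these counts.

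The same windows were searched on both strands for 7 short motifs of the factor families. The octamer ATGCAAAT, bound by OCT4 and its relatives, was in 1 of the 9 windows, that of *Cdx2*, and in 1.60% of all windows. GCCNNNGGC, an AP-2 motif, was in 3 of 9 windows (*Cdx2*, downstream *Gata2* and, at 3 positions, *Gata3*) and in 13.7% of all. GGAATG, bound by TEAD proteins, was in 2 of 9 (the downstream *Gata2* and the upstream *Elf5* window) against 12.6% of all. TTTATG, bound by CDX proteins, was in 2 of 9 (*Tfap2a* and the downstream *Elf5* window) against 10.8%, and the T-box motif AGGTGT in 1 of 9 (upstream *Elf5*) against 11.8%. The GATA motifs AGATAA and TGATAA were in 0 of 9, against 9.99% and 7.94%. Forms of the GATA motif that end in G were not searched, and TGATAG stands in the upstream *Elf5* window. These are counts of letters in the windows, and no binding was measured.

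*Tead4* stands at the head of the trophectoderm programme. Its probe, A_55_P2159870, gave log2 ratios of 0.68 for replicate 1 and 0.60 for replicate 2. Both lay above the 1.5-fold line, and the mean was 0.64 ± 0.055 (SD, n = 2), a 1.56-fold rise (adjusted p = 0.000148, limma). The normalized log2 signal of the control pool was 8.16 on one array and 8.56 on the other, although the pool was the same RNA. This difference of 0.40 was the largest among the tested factors, whose median was 0.068, while over all tested genes the median was 0.054 and the 95th percentile 0.224. The AIMP3-depleted signals, 8.84 and 9.16, were each above the control signal of their own array.

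*Cdx2* encodes the homeodomain protein that commits outer cells to trophectoderm. Its log2 ratio was 0.54 in replicate 1 and 0.78 in replicate 2. Both were positive, but that of replicate 1 lay below the 1.5-fold line, and the SD of 0.17 was the widest among the 9 tested factors, whose SDs began at 0.0030. The mean was 0.66, 1.58-fold, with a 95% interval of 0.50 to 0.82 (adjusted p = 0.000438, limma). The call rests on replicate 2: without it the ratio is 0.54 and *Cdx2* is not called. The control signal was 8.59 and 8.70 in log2, and the AIMP3-depleted signal 9.13 and 9.48.

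*Gata3* and *Gata2* encode zinc finger factors that act beside CDX2 in trophectoderm and later in trophoblast giant cells. For *Gata3* the log2 ratios were 0.82 and 0.87 (mean 0.85 ± 0.038, SD, n = 2, 1.80-fold, adjusted p = 5.95e-05, limma). *Gata2* gave 0.81 and 0.78 (mean 0.79 ± 0.019, SD, n = 2, 1.73-fold, adjusted p = 6.72e-05, limma). Each array of each gene was beyond 1.5-fold, and the 95% intervals, 0.74 to 0.96 for *Gata3* and 0.69 to 0.90 for *Gata2*, overlapped. The control signal of *Gata3* was 9.47 and 9.54 and its AIMP3-depleted signal 10.29 and 10.42. For *Gata2* the control gave 8.84 and 8.90, and AIMP3-depleted cells 9.64 and 9.68. In both genes every AIMP3-depleted value was above every control value.

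*Hand1*, a basic helix-loop-helix factor required for trophoblast giant cells and also used in mesoderm and heart, had the largest mean ratio of the 9 genes in the values used here, though not with the processed signals (0.84 against 0.92 for *Gata3*) or the authors' deposited table (0.88 against 0.96), and the second *Arid3a* probe was as high. *Hand1* gave 0.86 and 0.91, a mean of 0.89 ± 0.036 (SD, n = 2) or 1.85-fold (adjusted p = 5.35e-05, limma), above 98.1% of tested genes. The control signals agreed within 0.0095, at 10.43 and 10.44, and the AIMP3-depleted signals were 11.29 and 11.35. Background was a small part of these values, since the raw control signal was 22.5 times its local background on each array.

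*Arid3a* encodes an AT-rich DNA-binding protein that acts in trophectoderm and represses pluripotency genes. Its brighter probe, A_55_P1952166, which stands for the gene, gave 0.56 on both arrays (mean 0.56 ± 0.0030, SD, n = 2, 1.47-fold, adjusted p = 0.000190, limma), just under the 1.5-fold line. The second probe, A_55_P2182358, gave 0.87 and 0.92 (mean 0.90 ± 0.032, SD, n = 2, adjusted p over probes = 7.96e-05, limma), beyond the line on both arrays. The probes differed in size but not in direction, and their mean, 0.73, would be called. The control signal of the brighter probe was 11.57 and 11.58, and the AIMP3-depleted signal 12.12 and 12.14.

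The AP-2 factors *Tfap2a* and *Tfap2c* had ratios of opposite sign. TFAP2C is needed in trophoblast and germ cells, and TFAP2A acts in trophoblast, neural crest and skin. *Tfap2a* probe A_55_P1964812 gave 0.36 and 0.41 (mean 0.39 ± 0.033, SD, n = 2, adjusted p = 0.000753, limma), a positive ratio below 1.5-fold. Its second probe was not well above background in either channel and gave 0.088 and 0.073. *Tfap2c* gave -0.19 and -0.22 (mean -0.21 ± 0.019, SD, n = 2, adjusted p = 0.00881, limma), well short of 1.5-fold. Its control signal was 13.28 and 13.25, and that of AIMP3-depleted cells 13.09 and 13.03. The sign of *Tfap2c* turned to 0.047 (adjusted p = 0.576, limma) when each array was centred on its median in place of loess, a scaling that moved the median of all tested genes to 0.18. Relative to that median *Tfap2c* was at -0.13.

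*Eomes* and *Elf5* are the partners of CDX2 that maintain trophoblast stem cells. *Eomes* encodes a T-box factor that is also used in the primitive streak. Its brighter probe gave -0.11 and -0.21 (mean -0.16 ± 0.065, SD, n = 2, adjusted p = 0.0286, limma), with a 95% interval of -0.28 to -0.046. Under median centring the ratio was -0.024. The second probe was not well above background in any channel and disagreed between arrays, at -0.24 and 0.39. *Elf5* encodes an ETS factor. Its probe read 72 and 71 raw units in the control, over local backgrounds of 48 and 48.5, and 75.5 and 76 in AIMP3-depleted cells, over 61 and 62. *Elf5* was therefore not well above background in any of the 4 readings, and no fold is given.

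**Figure D2:**
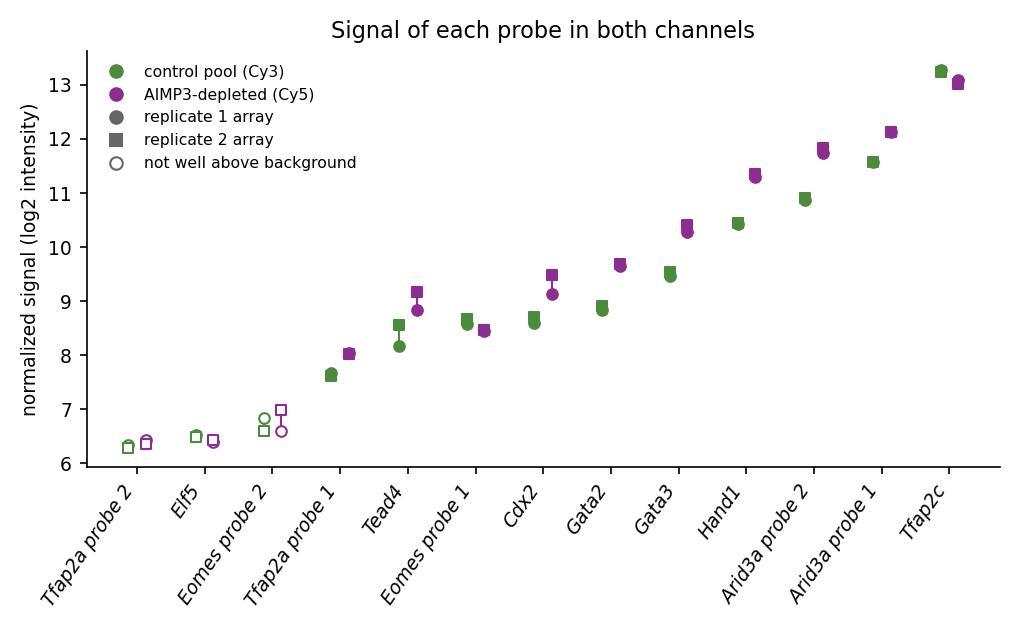
Normalized log2 signal of each of the 13 probes in the control pool (Cy3, green) and AIMP3-depleted cells (Cy5, purple), with circles for the array of replicate 1, squares for that of replicate 2, and open symbols for readings not well above background. Heights can be compared within a probe but not between probes; *Tfap2a* (probe 1), *Tead4*, *Cdx2*, *Gata2*, *Gata3*, *Hand1* and *Arid3a* show AIMP3-depleted signals above both control readings, and *Elf5* lies near background.

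In the order of the mean log2 ratios, *Hand1* (0.89), *Gata3* (0.85) and *Gata2* (0.79) came first with overlapping 95% intervals. *Cdx2* (0.66), *Tead4* (0.64) and *Arid3a* (0.56) followed, again with overlapping intervals, the interval of *Cdx2* also overlapped those of the leading 3, and that of *Tead4* those of *Gata3* and *Gata2*. *Tfap2a* (0.39) came next, with an interval of 0.28 to 0.50 that overlapped that of *Arid3a*. *Eomes* (-0.16) and *Tfap2c* (-0.21) overlapped each other and lay apart from the rest. No pair was tested against another.

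**Figure D3:**
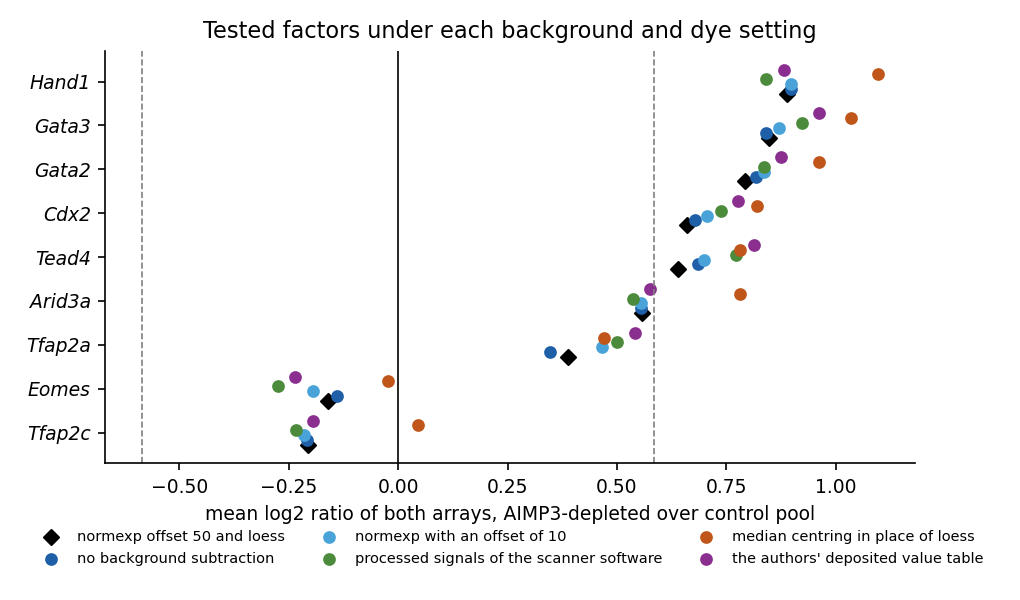
Mean log2 ratio of both arrays for the 9 tested factors under the background correction used here and 5 other treatments of the values, with dashed lines at 1.5-fold. *Hand1*, *Gata3*, *Gata2*, *Cdx2* and *Tead4* stay to the right of the line in all 6, *Arid3a* crosses it under median centring, and *Tfap2c* crosses 0 there.

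Genes that act with TEAD4 or restrain YAP were read next, 17 in all and each of them tested. Of these, 5 rose and 0 fell, with a median of 0.19 (0.49 under median centring, where all 17 ratios were positive). *Lats2*, a kinase that keeps YAP out of the nucleus, rose by 1.03 (a second probe gave 0.49), and *Amot*, a junctional protein that binds YAP, by 0.94. *Wwtr1*, the YAP relative TAZ, rose by 0.72 and the *Amot* relative *Amotl1* by 0.64. The fifth was *Amotl2* at 0.60, called in 5 of 6 treatments of the values (lowest 0.57) and named after its values were seen. *Yap1* itself gave 0.17 (0.16 to 0.49 over 6 treatments of the values), and the TEAD paralogs *Tead1*, *Tead2* and *Tead3* 0.45, -0.12 and 0.52, none past the threshold in the values used here. Over these treatments *Tead3* was called in 4 (at up to 0.67) and *Tead1* in 1, while *Tead2* lay between -0.13 and 0.17.

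Of 16 other factors and signals of trophoblast stem cells, all tested, 3 rose and 1 fell, with a median of 0.29. Under median centring the median was 0.45 and 6 rose, among them *Ascl2* (0.73), *Bmp4* (0.70) and *Ets2* (0.65), and 0 fell. *Id2*, an inhibitor of helix-loop-helix factors, rose by 0.88, the BMP ligand *Bmp8b* by 0.84, and the nuclear receptor *Nr2f2* by 0.64. *Fgf4*, the growth factor from pluripotent cells on which trophoblast stem cells depend, gave -0.85 and -0.89 and fell by 0.87 on average. Under median centring *Fgf4* was at -0.47 and not called. Its receptor *Fgfr2* gave -0.18, between -0.24 and -0.030 over 6 treatments of the values.

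The trophectoderm epithelium list holds keratins, channels and adhesion genes, and 9 of its 14 genes rose, 0 fell and the median was 0.86. *Krt18* gave 1.76 and 1.80 and rose by 1.78, *Krt8*, its partner in simple epithelia, by 1.36, and *Krt19* by 1.20. *Aqp8*, a water channel, rose by 1.43 (0.61 on its other probe). *Cdh3*, encoding P-cadherin, and *Atp1b1*, a subunit of the sodium pump that fills the blastocoel, gave -0.044 and -0.036, and over 6 treatments of the values they ran from -0.13 to 0.17 and from -0.048 to 0.27. Simple keratins are also made by other epithelia, including primitive endoderm.

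Of 23 products of differentiated trophoblast, 11 could be tested, of which 5 rose and 0 fell (median 0.52, or 0.83 under median centring). The X-linked homeobox genes *Rhox6* and *Rhox9*, active in placenta and germ line, rose by 1.29 and 1.14, the placental gene *Plac1* by 1.04 and the VEGF receptor *Flt1* by 0.76. The fifth was *Peg10*, an imprinted gene of the placenta, at 0.63 (0.57 on its other probe), named after its values were seen. The genes that define the mature cell types were mostly untested: *Tpbpa* of spongiotrophoblast, *Syna* and *Synb* of syncytiotrophoblast, and *Ctsq*, *Prl7d1* and *Prl5a1* did not pass the filter. The placental lactogens *Prl3d1* and *Prl3b1* of giant cells were tested and gave 0.29 and -0.078. Over 6 treatments of the values *Prl3d1* ran from 0.24 to 0.37 and *Prl3b1* from -0.17 to 0.061. *Gcm1*, a regulator of syncytiotrophoblast, gave 0.52, with its 4 tested probes between -0.055 and 0.53, and was called in 1 of 6 treatments of the values, at 1.04. The probe that stands for *Gcm1* had a mean control signal of 16.83 in log2, and what it detects was not tested.

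Genes known to hold trophectoderm genes off in embryonic stem cells form a list of 16, of which 15 were tested. *Dnmt3b*, a de novo DNA methyltransferase, fell by 0.73 and was the 1 gene of the list past the threshold (2 genes without replicate 2). *Pou5f1*, whose product represses *Cdx2*, gave -0.64 and -0.32 (mean -0.48), and *Nanog* -0.38 (0.064 on its other probe), neither past it. The list's median was -0.15, with 14 of 15 ratios below 0. Under median centring *Dnmt3b* was at -0.31 and not called, the median was 0.096 and 6 ratios were below 0, while relative to the median of all genes the list lay at -0.084. The pluripotency list of 11 genes, all tested, gave a median of -0.30 (0.067 under median centring), with 8 ratios below 0 and 3 above. Of these genes 2 fell, *Fgf4* and *Tdgf1* (-0.59), the latter called in 3 of 6 treatments of the values. The count was 1 with the processed signals, the authors' deposited table or the methods' t-test, and under median centring 0 fell and 1 rose. *Sox2* gave -0.53 and *Zfp42* -0.15, the latter between -0.22 and 0.067 over the 6 treatments. *Sox2* lay between -0.54 and -0.29 over them, *Pou5f1* between -0.57 and -0.26, and *Nanog* between -0.40 and -0.17. The 3 positive genes were *Dppa5a* (0.50, and past the threshold in 1 of 6 treatments, at up to 1.03), *Klf4* (0.14, and 0.10 to 0.37 over the treatments) and *Esrrb* (0.12, and 0.11 to 0.44).

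**Figure D4:**
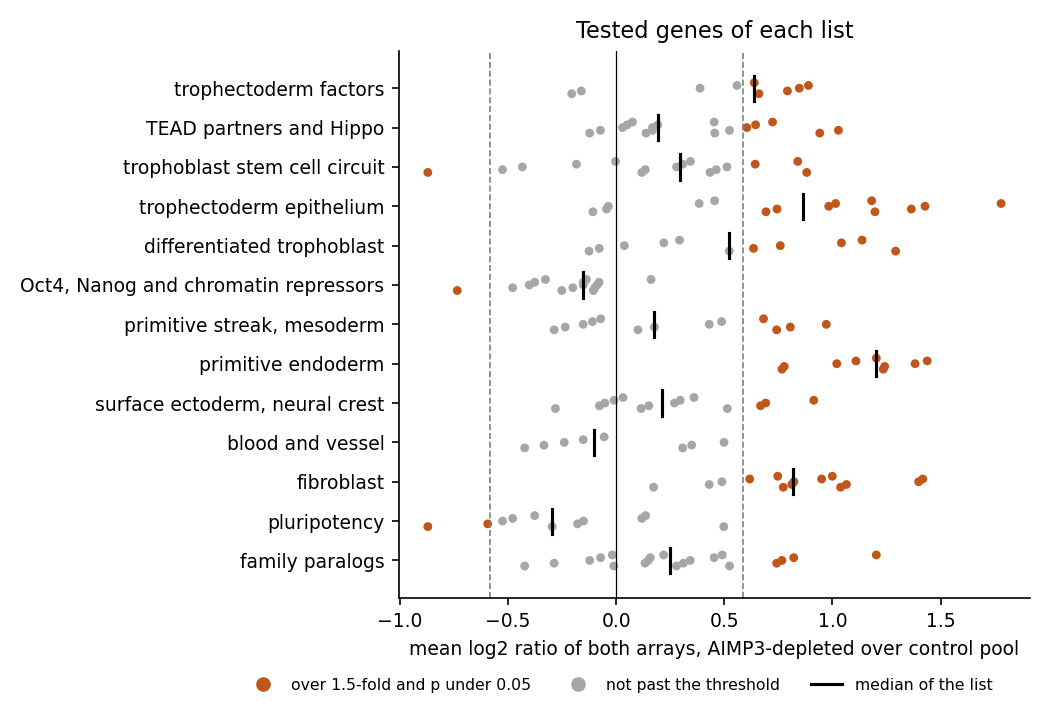
Mean log2 ratio of both arrays for every tested gene of the trophectoderm factors and of 12 other lists, orange where over 1.5-fold with an unadjusted p under 0.05, grey otherwise, with a bar at each median and dashed lines at 1.5-fold. The medians run from -0.30 for the pluripotency list to 1.20 for primitive endoderm, with 0.64 for the trophectoderm factors.

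The 10 factors are not used in trophectoderm alone, so markers of the other tissues that employ them were counted. In primitive streak and mesoderm, where *Eomes*, *Hand1*, *Cdx2* and *Gata2* are used, 4 of 13 tested genes rose and 0 fell (median 0.18, or from -0.044 to 0.26 relative to all genes over 6 treatments of the values): *Pdgfra* (0.97), *Foxf1* (0.81), *Cdx1* (0.74) and *Wnt3* (0.68). The median of this list was 0.25 for replicate 1 and 0.11 for replicate 2. The streak marker *T* gave -0.071 and *Gsc* -0.11, the latter from -0.24 in replicate 1 and 0.018 in replicate 2. *Mixl1* and *Mesp1* could not be tested. In surface ectoderm and neural crest, where *Tfap2a*, *Tfap2c* and *Gata3* act, 3 of 14 tested genes rose (median 0.21, or 0.31 under median centring): *Snai2* (0.91), *Pax3* (0.69) and *Msx2* (0.67). That count was 5 with the processed signals or the authors' deposited table and 1 with the methods' t-test. In the values used here 10 of the 14 ratios were above 0 and 4 below. The latter were *Foxd3* (-0.28), *Grhl2* (-0.078), *Dlx5* (-0.052) and *Krt5* (-0.0096), and the neural crest marker *Sox10* gave 0.032. In blood and vessel, where *Gata2* acts, 0 of 8 tested genes were called by limma or the methods' t-test (7 at an unadjusted p under 0.05 in limma, median -0.10, or 0.099 under median centring), with *Runx1* at 0.50 (0.72 on its other probe) and *Gata1* at -0.42. The count was 3 with the processed signals, 2 with the authors' deposited table, and 1 with median centring or the mean of probes. *Runx1* was called in 3 and *Gata1* in 2 of 6 treatments of the values, and the probes of *Kdr* disagreed, at -0.15 and 1.06.

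Marker lists of 2 other cell types had higher medians than the trophectoderm factors. All 9 tested genes of the primitive endoderm list rose (median 1.20), led by *Sox17* (1.44, or 0.94 on its other probe), *Foxa2* (1.38, or 1.05), *Sparc* (1.24, or 0.71) and *Col4a1* (1.24), and its summed signal was 134092 and 139470 in the control and 309336 and 310604 in AIMP3-depleted cells. *Sparc* and *Lama1* supplied 93.1% of that control sum, so it describes mainly these genes. *Hnf4a*, *Ttr* and *Afp* could not be tested. Of the fibroblast list, the type of the feeder cells, 11 of 14 tested genes rose (median 0.82), including *Vim* (1.42), *S100a4* (1.40), *Col1a1* (1.06) and *Col1a2* (1.04). Its summed signal was 35644 and 36360 in the control and 76017 and 78595 in AIMP3-depleted cells, with 47.6% of the control sum from *Vim* and *Col1a1*, and *Lum* could not be tested. The part of either cell type in the ratios of *Hand1*, *Gata3*, *Gata2*, *Cdx2* and *Tead4* was not tested.

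Among 29 paralogs of the 10 factors, 20 were tested, of which 4 rose and 0 fell (median 0.25, or 0.37 under median centring). Under that centring 7 rose, while 5 rose and 1 fell with the processed signals or the authors' deposited table. *Gata6* rose by 1.20 and *Gata4* by 0.77, both factors of primitive endoderm, while *Gata5* gave -0.011 and *Gata1* -0.42. The *Cdx2* relative *Cdx1* rose by 0.74 and the *Elf5* relative *Elf1* by 0.82 (0.28 on its other probe). The *Hand1* relative *Hand2* and the *Tfap2a* relatives *Tfap2b* and *Tfap2d* could not be tested. *Tbx3*, a T-box relative of *Eomes* active in mESCs, gave 0.49 and was called in 1 of 6 treatments of the values, at 0.72. *Arid3b* gave 0.13, between 0.086 and 0.35 over these treatments, and *Gata5* ran from -0.075 to 0.15.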

How the data were processed

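RNA of 2 AIMP3-depleted replicates was compared with 1 control pool on 2 two-colour Agilent mouse arrays, and samples were grouped by their labels. The authors deposited the scanner output (Agilent Feature Extraction), in which the intensity of spots and of their surroundings is unnormalized. Background-subtracted, dye-normalized processed signals are given too. A log10 ratio and its p-value per spot, also deposited, were not used here. The value table deposited by the authors holds log2 ratios, which matched the log2 ratio of the processed signals after an offset of 0.0404 for replicate 1 and 0.0395 for replicate 2, within 0.01 for 99.8% of 55680 and 55679 probes. Its column medians were 0.0909 and 0.111, positive values are higher in AIMP3-depleted cells, the source of the offset is unknown, and 0 columns were left out.

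Median spot signals were used, since the files hold no mean signal. Background was corrected with limma's normexp (offset 50), and arrays were normalized by loess with control spots at weight 0. Control spots and outlier spots (215 and 227) were then dropped, and repeated spots averaged per probe. Testing took in 33009 of 55681 probes, those that Feature Extraction marked well above background on both arrays in 1 channel or both. The brightest probe stood for each of 24020 genes. Accessions were matched to RefSeq symbols (GRCm38.p6, names only) for 31014 of 59305 spots.

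Log2 ratios were tested against 0 with lmFit and eBayes (1 residual and 5.24 prior degrees of freedom), with Benjamini-Hochberg adjustment over all tested genes. What is called the methods' t-test here compared the log2 ratios of a gene with 0, with 1 degree of freedom. The study's methods name Student's t-test between groups, which 1 control pool does not allow. On simulated data with 24020 genes, 193 of 200 changed genes were recovered in the right direction, with 0 false calls. The named genes are the 10 factors, *Eef1e1*, 4 pluripotency genes and up to 4 called genes per list with the largest ratios; others named as values define a list or are relatives of a factor, and were chosen after their values were seen. Of 179 listed genes, 20 are in over 1 list. The members and lists were chosen with earlier results of these data known. The software was R (version 4.3.3) with limma (3.58.1). The number of arrays limits the precision.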

Additional observations from a re-analysis of the deposited data

How the results depend on the processing

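*Hand1*, *Gata3*, *Gata2* and *Tead4* were called under every alternative tried except the 2-fold threshold, at which 0 of 9 factors passed. *Cdx2* was called under all but that threshold, the methods' t-test (unadjusted p = 0.116) and the omission of replicate 2, and *Arid3a* was called under median centring (0.78), with the mean of its probes (0.73) and at 1.3-fold. *Tfap2a* was called at 1.3-fold alone. The ratio of *Tfap2c* turned to 0.0465 under median centring. The methods' t-test called 4 factors and 992 genes, and after Benjamini-Hochberg adjustment 0 of either (lowest adjusted p = 0.0894), with 5880 genes and 7 factors at an unadjusted p under 0.05, against 13028 genes at an adjusted p under 0.05 by limma.

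The number of changed genes, 1517 here (87.5% raised), was 2719 (71.5% raised) with the processed signals, 2888 (97.7% raised) with median centring, 2747 with the authors' deposited table, 298 at 2-fold and 3969 (73.4% raised) at 1.3-fold. Of 145 tested genes on the lists, 53 changed, and 21 did at 2-fold. Leaving out 1 replicate gave 4 to 5 changed factors, 1523 to 1651 changed genes and 52 to 54 changed genes on the lists, as values with no test. No paired analysis was possible because the control was 1 pool.

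With 2 arrays, no dye swap and 1 control pool, precision is limited: the same control RNA differed between the arrays by a median of 0.054 and a 95th percentile of 0.224 on the log2 scale. *Elf5* and the second probes of *Eomes* and *Tfap2a* were limited by signal over background.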
